A study of Mus musculus with 46 samples.

Results

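B16F10 mouse melanoma cells that carried a guide against Arid1a were cultured with anti-IFNAR, an antibody to the receptor of type I interferons, and their RNA was set against that of the same cells without antibody. The comparison rests on 4 of the 46 libraries of the series, 2 with anti-IFNAR and 2 without, chosen by their labels, and on 11686 of 24537 genes whose mean log2 value was at least 4. Arid1a encodes a part of the SWI/SNF complex, which moves nucleosomes, and B16F10 is a melanoma line of the C57BL/6 strain. The groups used were sgArid1a cells given the antibody for 72 h, sgArid1a cells listed as untreated with no time given, and untreated B16F10 cells with a scrambled guide (sgScramble), all in 1 deposited table. Separate experiments, each in its own table, held sgArid1a cells given ruxolitinib, an inhibitor of JAK1 and JAK2, or its solvent DMSO for 72 h, and sgScramble cells given the compound BD98 with anti-IFNAR or BD98 alone for 72 h. Both of these experiments also held sgScramble cells given DMSO for 72 h, which entered the fits of their own experiment. Each group had 2 libraries. The labels name no isotype control antibody among these groups and do not say whether a guide line was a clone or a pool, or whether replicates were separate cultures, so p-values measure only the spread between libraries, which may be technical.

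Type I interferons bind a receptor of the chains IFNAR1 and IFNAR2, which signals through the kinases JAK1 and TYK2. These phosphorylate STAT proteins, which join IRF9 in the complex ISGF3, and ISGF3 binds the interferon-stimulated response element (ISRE) in the promoters of interferon-stimulated genes. Several of those genes encode parts of the pathway itself, such as STAT2, IRF9 and the feedback inhibitor USP18, so that tonic signalling through the receptor is known to hold up their basal level.

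Depth, in M (mega) reads as the file headers total them, was 21.2 and 21.6 with anti-IFNAR, 20.5 and 20.1 in untreated sgArid1a cells and 8.68 and 22.8 in sgScramble cells. The standard deviation of the difference between the replicates over all tested genes was 0.08 with anti-IFNAR, 0.10 in untreated sgArid1a cells and 0.17 in sgScramble cells on the log2 scale. Melanocyte genes such as Tyr, Dct, Pmel and Mlana were present, with 21 of 22 passing the filter. Of other cell types, 1 of 16 macrophage, 1 of 13 T and NK cell, 0 of 7 B cell and 0 of 8 endothelial markers passed. So did 1 of 8 epithelial and 4 of 9 fibroblast markers, the latter being Pdgfra, Pdgfrb, Fbln1 and Postn. Arid1a itself had log2 values of 10.60 and 10.61 with anti-IFNAR, 10.57 and 10.53 in untreated sgArid1a cells and 10.95 and 11.10 in sgScramble cells. Its messenger level was thus lower in both sgArid1a groups, by 0.47 ± 0.07 in the untreated cells (limma, adjusted p = 0.00361), and did not differ beyond its error between them (0.06 ± 0.07). The messenger level does not measure the protein. Errors after ± are standard errors of a log2 fold change.

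Promoter windows of some genes that interferon induces are shown because the ISRE is the element through which the receptor acts on such genes. The genes were picked by hand, and only windows that hold the ISRE core before the start are shown. The windows thus do not speak for other genes. They come from RefSeq on GRCm38.p6 and run 5′ to 3′ on the gene's strand, with the ISRE core in capitals (GAAA and GAAA with NN between them, or TTTC and TTTC with NN between where it lies on the other strand). Overlapping cores are run together.
Oas1a, chr5:120907526-120907575, minus strand: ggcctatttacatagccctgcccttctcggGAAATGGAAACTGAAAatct
Oas1g, chr5:120887614-120887661, minus strand: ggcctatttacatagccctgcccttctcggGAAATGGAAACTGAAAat
Igtp, chr11:58199492-58199555, plus strand: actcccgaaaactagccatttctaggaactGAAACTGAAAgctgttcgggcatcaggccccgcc
Lgals9, chr11:78984940-78985009, minus strand: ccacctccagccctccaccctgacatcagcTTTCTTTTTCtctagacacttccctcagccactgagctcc
Bst2, chr8:71537557-71537632, minus strand: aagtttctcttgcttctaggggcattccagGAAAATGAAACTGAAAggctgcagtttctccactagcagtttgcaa
Isg15, chr4:156200845-156200926, minus strand: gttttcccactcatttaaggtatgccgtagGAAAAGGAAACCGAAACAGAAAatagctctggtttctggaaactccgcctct
Ifit1, chr19:34640755-34640843, plus strand: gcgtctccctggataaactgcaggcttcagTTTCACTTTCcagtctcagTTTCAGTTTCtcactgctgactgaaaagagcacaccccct
The Oas1a and Oas1g windows share all of their first 48 bases. These genes are close copies, and reads that match both make their counts uncertain.

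With anti-IFNAR, 2 genes fell and none rose (limma on 6 libraries with Benjamini-Hochberg adjustment, adjusted p under 0.05), which is 0.0171% of the genes tested. At an unadjusted p under 0.05 there were 150 genes, 111 lower and 39 higher, and the median log2 fold change of all tested genes was 0.00. Both genes that fell belong to the interferon response. Ifi27 (chr12:103434189-103440245, GRCm38), a small mitochondrial protein induced by interferon, had log2 values of 9.21 and 9.06 with anti-IFNAR, 10.08 and 10.06 in untreated sgArid1a cells and 9.54 and 9.71 in sgScramble cells. Its libraries did not overlap between any of the groups, and the treated cells stood lowest. It fell by 0.94 ± 0.08 on the log2 scale (adjusted p = 0.00455), or by 47.8%. Irf9 (chr14:55603985-55610030), the DNA-binding part of ISGF3, had values of 7.41 and 7.47 with anti-IFNAR, 8.06 and 8.02 in untreated sgArid1a cells and 7.58 and 7.62 in sgScramble cells. The treated libraries were again the lowest, and Irf9 fell by 0.60 ± 0.07 (adjusted p = 0.0227), or by 33.9%. In the authors' deposited table the same genes had larger log2 fold changes, -1.44 (Ifi27) and -1.26 (Irf9). Fold changes computed from the deposited log2 values were smaller than those of the authors' deposited table at every level, and the more so the lower the gene. Over sgArid1a against sgScramble, the median ratio was 0.137 for genes of mean log2 value 4 to 6, 0.366 for 6 to 8, 0.594 for 8 to 10, 0.706 for 10 to 12 and 0.749 from 12 up, among genes with an absolute fold change of at least 0.5 in the authors' deposited table.

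**Figure D1:**
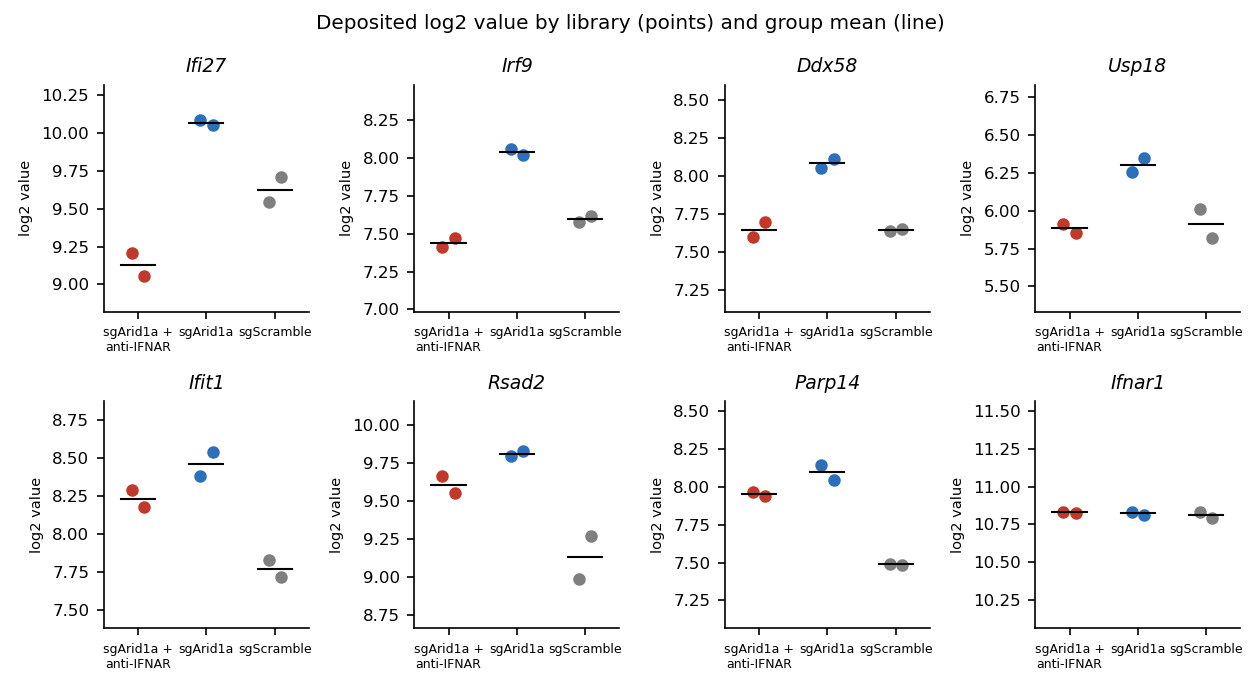
Deposited log2 values (y axis, range set per gene) of 8 genes in sgArid1a cells with anti-IFNAR, untreated sgArid1a cells and sgScramble cells, with 1 point per library and a line at the mean of the 2 libraries. Ifi27 and Irf9 are lowest with anti-IFNAR, Ddx58 and Usp18 with the antibody overlap the sgScramble libraries, Ifit1, Rsad2 and Parp14 stay above sgScramble, and Ifnar1 is level across groups.

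How many genes passed depended on the libraries that estimated the spread. With only the 4 libraries compared, 18 genes were called lower and none higher (0.154% of genes tested). Without any 1 of the 4 compared libraries 0 or 1 gene was called: 1 without anti-IFNAR replicate 1, 0 without anti-IFNAR replicate 2, and 0 without either untreated sgArid1a replicate. The authors' deposited table lists 34 genes as lower and 0 as higher, 33 of them among the genes tested (0.282%), of which 17 are on the list of type I interferon-stimulated genes.

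That list has 70 genes, and 55 were tested. The counts called lower were 2 of 55 with all 6 libraries, and 10 of 55 with only the 4 compared. Without any 1 compared library they were 0 or 1. The direction was shared more widely than the calls: 51 of 55 had a fold change below 0, against 49.2% of all tested genes, and the median was -0.17 against 0.00. For 43 of the 55, both treated libraries lay below both untreated ones, which was so for 15.8% of all tested genes. The exceptions above 0 were Slfn9 (0.03), Dtx3l (0.04), Ifit2 (0.04) and Zc3hav1 (0.06). The 15 members not tested had low values, among them Oas2, which had 2.82 and 2.82 with anti-IFNAR, 2.91 and 2.83 in untreated sgArid1a cells and 2.80 and 2.84 in sgScramble cells.

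**Figure D2:**
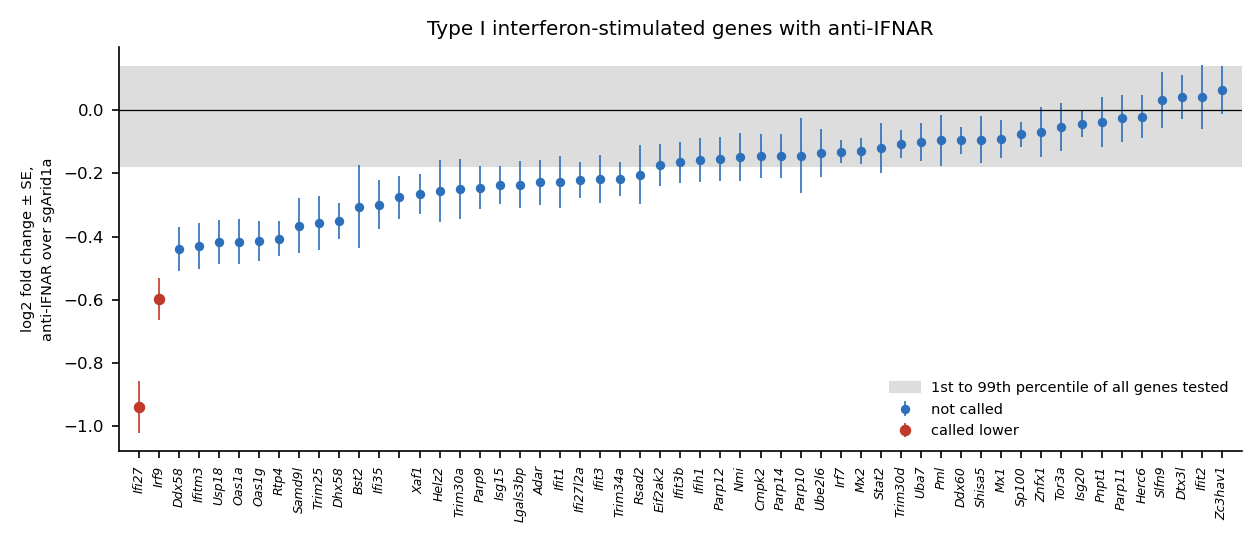
Log2 fold change of anti-IFNAR over untreated sgArid1a cells (y axis, ± standard error, 2 libraries a group) for the 55 type I interferon-stimulated genes tested, in rank order, with 1 gene drawn without its name. The grey band spans the 1st to the 99th percentile of all tested genes, -0.18 to 0.14; Ifi27 and Irf9 (red) are the genes called, and 51 of 55 points lie below 0.

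The receptor and the kinases were level at the messenger. Ifnar1, the chain to which blocking antibodies of this kind are usually raised, had log2 values of 10.84 and 10.83 with anti-IFNAR and 10.83 and 10.81 in untreated sgArid1a cells, a difference of 0.01 ± 0.07. In the same cells Ifnar2 differed by 0.03 ± 0.08, Jak1 by 0.06 ± 0.07 and Tyk2 by -0.02 ± 0.10. The ligand genes Ifnb1, Ifna1, Ifna2, Ifna4, Ifne and Ifnk were listed at 0 in all 6 libraries, and these data cannot say which interferon reached the receptor. Of the 28 ligand, receptor, JAK-STAT, IRF and SOCS genes tested, 1 fell, Irf9, and 14 lay below 0 (median 0.00).

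Other signal transducers and feedback genes downstream of the receptor did not pass the 6-library test. Usp18, the protease that blocks IFNAR2 signalling, had 5.91 and 5.85 with anti-IFNAR, 6.25 and 6.35 in untreated sgArid1a cells and 6.01 and 5.82 in sgScramble cells, so treated and untreated sgArid1a libraries did not overlap. Its fold change was -0.42 ± 0.07 (adjusted p = 0.157 with 6 libraries and 0.0041 with 4), and -1.54 in the authors' deposited table. Stat2 differed by -0.12 ± 0.08 and Irf7 by -0.13 ± 0.04. Irf7 had a mean log2 value of 4.59, a level at which such folds are much smaller than the authors'. In the authors' deposited table Stat2 was at -0.24 and Irf7 at -1.04, neither listed as lower. Socs3, a suppressor of cytokine signalling named after its values were seen, was at 0.17 ± 0.07. None of these was called. Jak1 and Tyk2 above were likewise named after their values were seen.

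RNA sensors that interferon induces made up a second group. Ddx58, which encodes RIG-I, had 7.59 and 7.69 with anti-IFNAR, 8.05 and 8.11 in untreated sgArid1a cells and 7.64 and 7.65 in sgScramble cells. Treated and sgScramble libraries overlapped, and both lay below untreated sgArid1a cells. The fold change was -0.44 ± 0.07 (adjusted p = 0.147 with 6 libraries and 0.00948 with 4). Dhx58, the related helicase LGP2, was at -0.35 ± 0.06 and Trim25, the ubiquitin ligase of RIG-I, by -0.36 ± 0.09. The sensor Ifih1 (MDA5) was at -0.16 ± 0.07, and Mb21d1, which encodes the DNA sensor cGAS, at 0.10 ± 0.07; it is named after its values were seen. None of the 22 nucleic acid sensing genes tested was called with 6 libraries, Ddx58 and Dhx58 were called with 4, the authors' deposited table lists 3 as lower, and 20 lay below 0 (median -0.06).

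Isg15, a ubiquitin-like protein, was at -0.24 ± 0.06 and Bst2, the tether that holds budding virions, at -0.31 ± 0.13, neither called with 6 or with 4 libraries. The authors' deposited table lists Bst2 as lower (-0.46), and not Isg15 (-0.62). Other antiviral effectors included Rtp4, a chaperone of membrane receptors that restricts flaviviruses in other mammals, with 5.70 and 5.80 with anti-IFNAR, 6.12 and 6.19 in untreated sgArid1a cells and 5.83 and 5.80 in sgScramble cells. Treated libraries lay below both untreated sgArid1a libraries, and the fold change was -0.41 ± 0.06 (adjusted p = 0.0655 with 6 libraries and 0.0041 with 4). Oas1g and Oas1a, synthases of the activator of RNase L, were at -0.42 ± 0.06 and -0.42 ± 0.07, and Ifitm3, which blocks viral entry, by -0.43 ± 0.07. Igtp, an immunity-related GTPase, was at -0.42 ± 0.07 and Lgals9, which encodes galectin-9, by -0.31 ± 0.07. These and Xaf1 (-0.27 ± 0.06) were called lower with 4 libraries, together with Ifi27, Irf9, Ddx58, Usp18, Rtp4, Dhx58 and 6 genes outside the interferon response. Ifitm3, Oas1a and Xaf1 are named after their values were seen.

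The ISRE core, searched on both strands, lay in the 300-base RefSeq window of 6 of the 11 genes of those 18 that have one, namely Ifitm3, Oas1g, Ddx58, Igtp, Oas1a and Lgals9. Among the 43 interferon-stimulated genes with a window, 20 held it (46.5%), against 3.49% of the 9397 tested genes with a window. Counting only the bases before the start, the shares were 4 of 11, 14 of 43 and 2.95%. Of the interferon-stimulated genes among the 18, Irf9 (2 windows) and Xaf1 (1 window) did not hold the ISRE core, which says only that these letters are not there. Ifi27, Usp18, Rtp4 and Dhx58 had no entry.

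Setting the antibody-treated cells against sgScramble cells shows how far the interferon-stimulated genes stood from untreated cells without the Arid1a guide. Guide and antibody both differ there, and the series holds no sgScramble cells given anti-IFNAR without BD98. A return to the control level and a fall of the basal level thus cannot be told apart. The contrasts with sgScramble share libraries with that of treated and untreated sgArid1a cells, so their values are given side by side only. Against sgScramble, 9 of 55 were called higher and 1 lower in sgArid1a cells with anti-IFNAR (6.12% and 6.61% of all tested genes, median of the list 0.06), and 36 of 55 were called higher in untreated sgArid1a cells (4.91% of all were called higher and 5.78% lower, median of the list 0.32). The 9 became 2 without either anti-IFNAR replicate and 14 without sgScramble replicate 2. The 1 called lower became 0 without anti-IFNAR replicate 2, and 3 or 4 when sgScramble replicate 1 or 2 was left out. The 36 became 14 without untreated sgArid1a replicate 1 and 9 without replicate 2. With the columns centred on their median, the calls over all genes were 862 higher and 682 lower with anti-IFNAR, instead of 715 and 772, and 717 higher and 572 lower in untreated sgArid1a cells, instead of 574 and 676.

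The members of the list differed in where the antibody left them. Ifi27 ended below sgScramble, by 0.49 ± 0.08 (adjusted p = 0.00449), after standing 0.44 ± 0.08 above it in untreated sgArid1a cells (adjusted p = 0.00845). Irf9 was at -0.16 ± 0.07 of sgScramble (adjusted p = 0.147), Ifitm3 at -0.20 ± 0.07, Usp18 at -0.03 ± 0.07, Oas1g at -0.01 ± 0.06, Dhx58 at -0.02 ± 0.06 and Ddx58 at -0.00 ± 0.07, none of them called. Parp14, an ADP-ribosyltransferase, had 7.97 and 7.94 with anti-IFNAR, 8.15 and 8.05 in untreated sgArid1a cells and 7.49 and 7.49 in sgScramble cells. Both treated libraries lay just below the untreated sgArid1a libraries and above sgScramble. It differed from untreated sgArid1a cells by -0.14 ± 0.07 and was 0.46 ± 0.07 above sgScramble (adjusted p = 0.00259).

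Ifit1, which binds viral RNA caps, had 8.29 and 8.18 with anti-IFNAR, 8.38 and 8.54 in untreated sgArid1a cells and 7.83 and 7.71 in sgScramble cells. Its treated libraries lay between the other groups, -0.23 ± 0.08 from untreated sgArid1a cells and 0.46 ± 0.08 above sgScramble (adjusted p = 0.00634). Rsad2, which encodes viperin, was at -0.20 ± 0.09 and 0.48 ± 0.09 against the same groups (adjusted p = 0.00976 against sgScramble). Ifit3 (0.40), Cmpk2 (0.33), Dtx3l (0.36), Slfn9 (0.36), Ifi35 (0.27) and Ifih1 (0.26) were the others still called above sgScramble, and all 9 were also called higher in untreated sgArid1a cells. Parp14, Cmpk2, Dtx3l, Slfn9, Ifi35 and Ifih1 are named after their values were seen.

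Genes more closely tied to interferon-gamma gave 9 tested of 27, with 9 below 0 (median -0.17). None was called with 6 libraries, Igtp was called lower with 4, and the authors' deposited table lists 2 as lower, Igtp and Irgm2. Irgm2, an immunity-related GTPase like Igtp, was at -0.31 ± 0.07. Irgm1 had 9.71 and 9.78 with anti-IFNAR, 9.95 and 9.94 in untreated sgArid1a cells and 9.18 and 9.22 in sgScramble cells. Its groups did not overlap: it differed by -0.20 ± 0.07 from untreated sgArid1a cells and remained 0.54 ± 0.07 above sgScramble (adjusted p = 0.000889). Irf1, a transcription factor that interferons induce, is named after its values were seen: it had 8.90 and 8.88 with anti-IFNAR, 8.92 and 8.94 in untreated sgArid1a cells and 8.26 and 8.44 in sgScramble cells. It differed by -0.04 ± 0.08 from untreated cells and stood 0.54 ± 0.08 above sgScramble (adjusted p = 0.00209).

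No antigen presentation, chemokine or checkpoint ligand gene was called with 6 libraries. Lgals9, the lowest of the 6 checkpoint ligands tested, was called lower with 4 libraries, and the authors' deposited table lists Lgals9 and B2m as lower. Of 21 MHC class I presentation genes, 16 lay below 0 (median -0.08). The class I heavy chains H2-K1 and H2-D1 were at -0.22 ± 0.12 and -0.17 ± 0.09. Their light chain B2m was at -0.26 ± 0.17, and the peptide transporter Tap1 at -0.09 ± 0.07. Against sgScramble, 7 of the 21 were called higher and 2 lower with anti-IFNAR (6.12% and 6.61% of all tested genes), and 11 higher and 1 lower in untreated sgArid1a cells (4.91% and 5.78% of all). With the antibody, Tap1 stood 0.32 ± 0.07 above sgScramble (adjusted p = 0.0148). Of the chemokines, 3 of 15 were tested, and Cxcl10 (-0.06 ± 0.08) and Ccl5 (0.02 ± 0.04) were level. Cd274, which encodes PD-L1, was at -0.05 ± 0.07.

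Gene groups that set sgArid1a cells apart from sgScramble cells outside the interferon response had no member called between treated and untreated sgArid1a cells with 6 libraries. Of 14 integrated stress response genes tested, 14 were called lower than sgScramble in sgArid1a cells with anti-IFNAR (6.61% of all tested genes, median of the list -1.22) and 14 in untreated sgArid1a cells (5.78% of all, median -1.20), and 0 were called between treated and untreated sgArid1a cells (median -0.05). Ddit3, which encodes the stress factor CHOP, had 9.05 and 8.97 with anti-IFNAR, 9.10 and 8.94 in untreated sgArid1a cells and 10.78 and 10.98 in sgScramble cells. Treated and untreated sgArid1a libraries overlapped, and both lay below sgScramble. The pseudokinase gene Trib3 differed by -0.08 ± 0.10 between treated and untreated cells, and Chac1, a glutathione-degrading enzyme, by 0.07 ± 0.11.

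Cholesterol and fatty acid synthesis ran the other way, with a median of 0.45 over sgScramble with anti-IFNAR and 0.43 without, and 0.02 between treated and untreated cells. Hmgcs1, an enzyme of the mevalonate pathway, was 0.57 ± 0.07 above sgScramble with anti-IFNAR and differed by 0.02 ± 0.07 from untreated cells. The chaperones of the endoplasmic reticulum (median 0.02), amino acid and one-carbon metabolism (0.03), pigment and lineage genes (-0.02) and SWI/SNF subunits (0.04) were likewise without calls between treated and untreated cells. The limma test on 6 libraries gave 150 genes at an unadjusted p under 0.05 over the whole table, as above. That is below a share of 0.05 of the 11686 genes tested, which such a threshold passes on average when no gene changes. The 6-library test may thus have been strict, and a lack of calls does not show a lack of change.

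**Figure D3:**
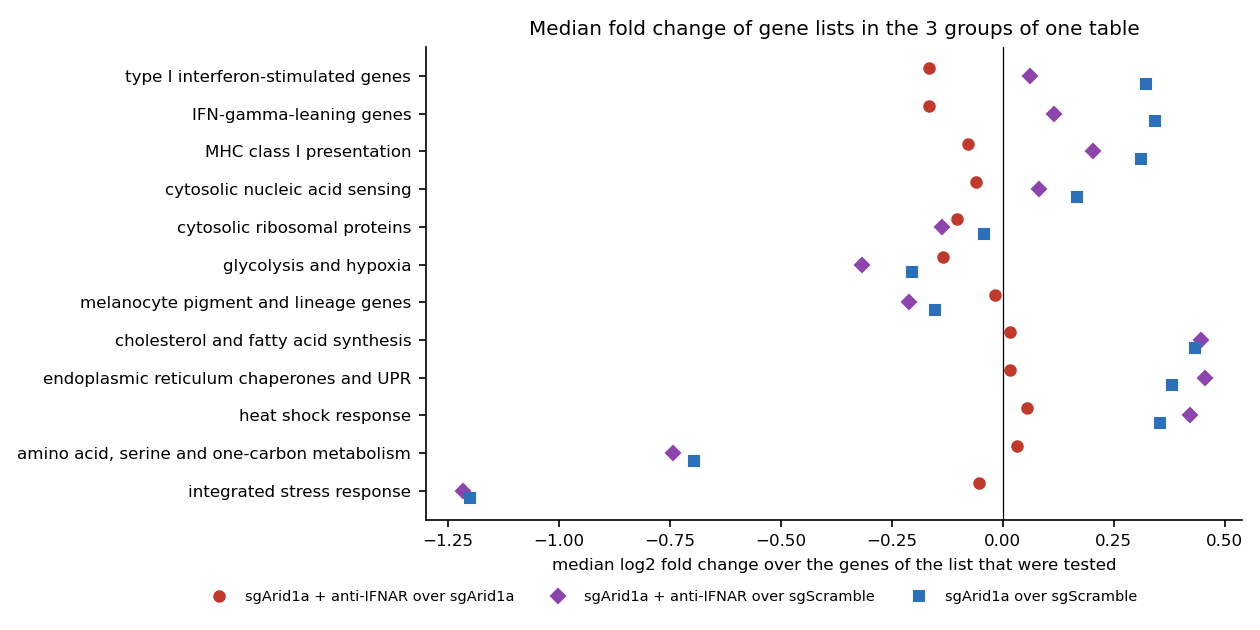
Median log2 fold change (x axis) of 12 gene lists, over the members tested, in 3 contrasts of 1 table: sgArid1a with anti-IFNAR over sgArid1a, sgArid1a with anti-IFNAR over sgScramble, and sgArid1a over sgScramble. The red points lie between -0.17 and 0.05 for every list shown, while the integrated stress response stands at -1.22 and -1.20 in the contrasts with sgScramble. The contrasts share libraries. Folds of the deposited values are smaller at lower levels, so medians of lists that differ in level cannot be ranked by size. For anti-IFNAR over sgArid1a, 53 interferon-stimulated genes had a median of -0.16 on the deposited values and -0.41 in the authors' deposited table.

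Some features outside the interferon response also had lower values with anti-IFNAR, and they are named after their values were seen. Lars2, a mitochondrial leucyl-tRNA synthetase gene, had 12.60 and 12.29 with anti-IFNAR, 13.34 and 14.04 in untreated sgArid1a cells and 12.56 and 13.23 in sgScramble cells. Rn45s, the ribosomal RNA precursor, had 15.90 and 15.80 with anti-IFNAR, 16.46 and 17.32 in untreated sgArid1a cells and 15.76 and 16.36 in sgScramble cells. Treated and untreated sgArid1a libraries did not overlap, but the untreated replicates differed by more than the treated ones, and the sgScramble libraries overlapped the treated ones for both.

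The fold changes of these features were -1.25 ± 0.23 for Lars2, -1.04 ± 0.25 for Rn45s and -0.95 ± 0.12 for Mir6236 (adjusted p = 0.052), none called with 6 libraries. All 3 were called with 4, as were Rmrp (-0.25 ± 0.05), the RNA of RNase MRP, Map3k12 (-0.32 ± 0.17) and Rpl35 (-0.31 ± 0.21). Libraries were made from polyA RNA, and how ribosomal and other non-polyadenylated RNA came to differ between them was not tested. Lars2, Rn45s and Mir6236 were also called lower with anti-IFNAR in BD98-treated cells, at -0.35, -0.40 and -0.38. With ruxolitinib none of the 3 was called by limma, at 0.02 ± 0.08 for Lars2, -0.38 ± 0.21 for Rn45s and -0.34 ± 0.11 for Mir6236. The authors' deposited table, however, lists Rn45s (-0.54) and Mir6236 (-0.48) as lower with ruxolitinib, and not Lars2 (0.02). It lists 3.78% of all genes tested in that experiment as lower.

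The lists of ribosomal protein and glycolysis genes held no call with 6 libraries. Of 26 cytosolic ribosomal protein genes on the list, which does not hold Rpl35, 23 lay below 0 (median -0.10). Rpl19 was the lowest at -0.32 ± 0.10, and the authors' deposited table lists it as lower. Of 20 glycolysis and hypoxia genes, 18 lay below 0 (median -0.13). Bnip3, a mitophagy receptor that hypoxia induces, had 10.53 and 10.12 with anti-IFNAR, 10.62 and 10.82 in untreated sgArid1a cells and 11.57 and 11.38 in sgScramble cells. Treated replicate 2 was the lowest library and treated replicate 1 lay close below the untreated ones, and the difference was -0.40 ± 0.13 without a call. Pgk1, a glycolytic kinase, was at -0.35 ± 0.11.

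**Figure D4:**
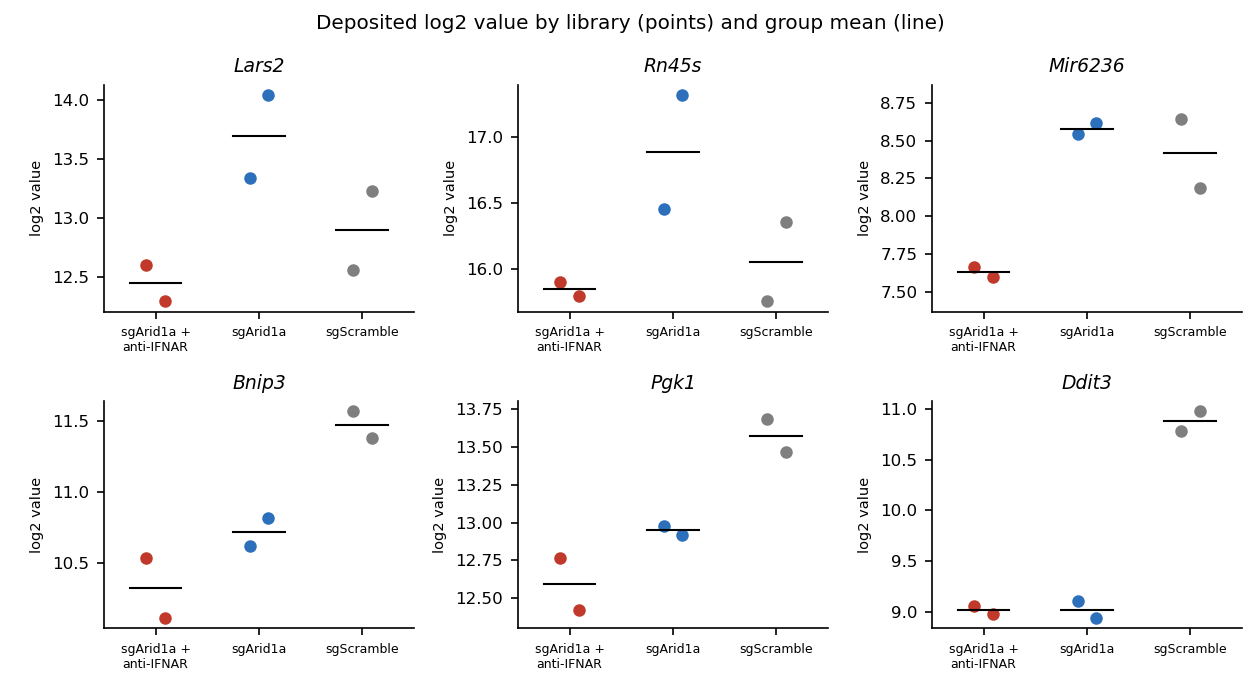
Deposited log2 values (y axis, range set per gene) by library, with 1 point per library and a line at the mean of the 2, for sgArid1a cells with anti-IFNAR, untreated sgArid1a cells and sgScramble cells. Lars2, Rn45s and Mir6236 are lower with the antibody, with wide spread between the untreated libraries for Lars2 and Rn45s; Bnip3 and Pgk1 are slightly lower with it, without a call; Ddit3 is level between treated and untreated sgArid1a cells and high in sgScramble cells.

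Ruxolitinib acts on JAK1 below the same receptor, and it was tested in the same kind of cells in a separate experiment with no shared library. With it 23 genes fell and 3 rose (limma, 0.195% and 0.0255% of 11783 tested, 0.221% in all), and 17 of 56 interferon-stimulated genes were among those that fell (median -0.26, against -0.00 for all). That 17 became 11 without either ruxolitinib replicate, 5 without DMSO replicate 1 of sgArid1a cells, 3 without its replicate 2, and 26 with only the 4 libraries compared. Ifi27 had log2 values of 8.91 and 8.89 with ruxolitinib and 9.93 and 9.86 with DMSO, and Irf9 had 7.50 and 7.57 with ruxolitinib and 8.26 and 8.29 with DMSO. Neither gene overlapped between groups, and both fell. On the scale of the deposited values Ifi27 fell by 50.1% (adjusted p = 7.24e-05) and Irf9 by 0.74 ± 0.08 in log2 (adjusted p = 0.000787). The log2 fold changes in the authors' deposited table were larger, -1.63 (Ifi27) and -1.51 (Irf9).

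Of the 23 genes that fell with ruxolitinib, 22 lay below 0 with anti-IFNAR, with a median of -0.31. The exception was Masp1, a complement protease (0.04), named after its values were seen. Both genes that fell with anti-IFNAR in the 6-library fit also fell with ruxolitinib, which is 100% of that set and 8.70% of the 23. Of the 18 called with 4 libraries, 15 were tested with ruxolitinib. Of these, 11 fell, or 61.1% of the 18 and 47.8% of the 23. Oas1g, Rmrp and Rpl35 were not among the genes tested there. The authors' deposited table lists Oas1g as lower with ruxolitinib.

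Anti-IFNAR was also given to sgScramble cells treated with BD98, a compound the labels name only by this code. Against BD98 alone, 178 genes fell and 14 rose (edgeR quasi-likelihood test on counts, 1.39% and 0.109% of 12843 tested, 1.49% in all). DESeq2 called 145 in all. The total of 192 became 86 without BD98 with anti-IFNAR replicate 2, 321 without BD98 replicate 1 and 810 without BD98 replicate 2. Of 61 interferon-stimulated genes, 50 fell (median -1.28), and 44 to 54 did with a library left out.

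Rtp4 had 3.09 and 2.13 CPM (counts scaled to equal library size) with BD98 and anti-IFNAR, 31.5 and 35.6 with BD98 alone and 4.78 and 5.60 with DMSO, and it fell by 3.72 on the log2 scale (adjusted p = 4.63e-14). Ifi27 had 108 and 98.5 CPM with BD98 and anti-IFNAR, 309 and 311 with BD98 alone and 48.4 and 54.8 with DMSO, with a log2 fold change of -1.60. For both genes, BD98 alone stood highest with no overlap.

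Of the 178 genes that fell there, 170 were tested in sgArid1a cells, where 151 lay below 0 (median -0.11), 2 were called with 6 libraries and 15 of the 18 called with 4 were among them. These 15 are 83.3% of the 18, of which 17 were tested with BD98, and 8.43% of the 178. The sizes of the fold changes cannot be set against each other directly, because the sgArid1a values were deposited as log2 values, whose folds are smaller at low levels as given above, and the BD98 values as counts. The authors' deposited tables give log2 fold changes for all 3 experiments, though the sources used here do not say that 1 method gave them all. Their medians over the 53 interferon-stimulated genes tested in all 3 were -0.41 with anti-IFNAR in sgArid1a cells, -0.71 with ruxolitinib in sgArid1a cells and -1.01 with anti-IFNAR in BD98-treated cells. By the adjusted p of the authors' deposited tables, 15, 35 and 45 of the 53 passed 0.05 in those experiments, where 0.282%, 3.78% and 1.18% of all genes tested in that experiment were listed as lower. The differences between these medians were not tested.

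**Figure D5:**
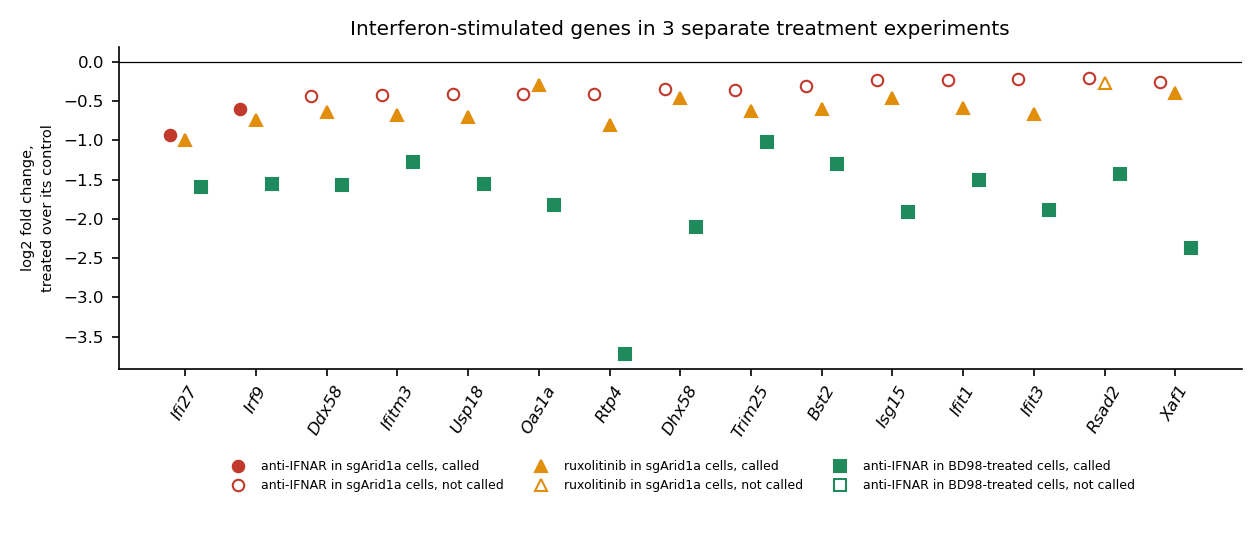
Log2 fold change (y axis) of 15 interferon-stimulated genes in 3 separate experiments: anti-IFNAR over untreated sgArid1a cells and ruxolitinib over DMSO in sgArid1a cells, both on deposited log2 values, and anti-IFNAR with BD98 over BD98 alone, on counts. Filled symbols passed the test of their experiment. Every point drawn lies below 0, from -0.20 to -0.94 for anti-IFNAR in sgArid1a cells. The 15 genes were picked from the list and leave out its members above 0, so this is no result about the list. Its highest members were at 0.06 with anti-IFNAR in sgArid1a cells, 0.13 with ruxolitinib and 0.37 with anti-IFNAR in BD98-treated cells.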

How the data were processed

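PolyA RNA was made into libraries with a stranded kit, per the labels' protocols. STAR 2.5.3a, HOMER, edgeR and DESeq2 and the build GRCm38 (mm10) are named in the submitters' processing notes. A strand setting for counting is absent from the file headers, and antisense neighbours may add to a gene's reads. Close copies (Oas1a and Oas1g, Ifit3 and Ifit3b, the Irgm, Gbp and H2 families) are uncertain. The anti-IFNAR and ruxolitinib tables hold log2 values that the authors normalized, whose fold changes are smaller than the authors' own at low levels; the method is not given in the sources used here. The BD98 table holds raw counts as the authors deposited them. The deposited tables also give log2 fold changes and p-values, which are named as the authors' wherever printed.

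Log2 values were fitted with limma 3.58.1 (R 4.3.3, trended prior variance, no pseudocount) over the 6 libraries of a table, on genes with a mean of at least 4. Counts were fitted with edgeR 4.0.16 (filterByExpr, TMM, quasi-likelihood), and DESeq2 1.42.0 served as an alternative. P-values were adjusted by Benjamini-Hochberg over all genes tested, with calls under 0.05. The design had allowed for counts in every table, and limma replaced that test where values were log2. Depth per library was 8.68 to 30.3 M reads and limits what low genes can show.

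Members and lists were chosen with earlier results of these data known. The rule for named genes took Arid1a and the receptor chains, the 12 largest falls and rises among called genes without overlap, up to 4 genes of the smallest p per list, a fixed panel of interferon, antigen presentation, stress and lineage genes, and genes called in several of the experiments; others are marked where named. Promoters (250 bases before to 50 after a start) came from RefSeq, GRCm38.p6, with 9397 of 11686 genes matched. Alternatives were filters, scalings, variance settings, a replicate block and leaving libraries out. Scripts were tested on simulated data. Other tables of the series were not used here. A few single-gene values and a second planned promoter motif are not reported here.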

Additional observations from a re-analysis of the deposited data

How the results depend on the processing

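The fall of Ifi27 and Irf9 held under no filter, a mean log2 of at least 6, median centring, quantile normalization, no variance trend and robust empirical Bayes (2 calls each). Only the 4 compared libraries gave 18 calls and 10 interferon-stimulated genes, as did leaving out sgScramble replicate 1, chosen after seeing the data; a lone sgScramble library adds nothing to the spread, so these are the same estimate and not separate checks. Leaving out each compared library gave 0 to 1 calls and 0 to 1 such genes. For sgArid1a against sgScramble (1250 calls), leave-one-out gave 265 to 3586 and the 4 libraries 684. For sgArid1a with anti-IFNAR against sgScramble (1487), these were 260 to 3827 and 970. For ruxolitinib (26), leave-one-out gave 4 to 91, where 91 is without the sgScramble DMSO replicate 1, again the same estimate as the 4 libraries with 89, and no variance trend 17. For BD98 (192), leave-one-out gave 86 to 810 and no filter 343. The causes were not tested. Ifi27 and Irf9 stayed below 0 under every alternative run, and 16 of the 124 named genes, none of them called and Ddit3 among them, had a sign that turned under at least 1; their fold changes with 6 libraries lay within 0.0985 of 0 on the log2 scale.

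With the replicate block, the calls were 3 for anti-IFNAR (2 of them interferon-stimulated genes), 894 for sgArid1a against sgScramble, 1067 for sgArid1a with anti-IFNAR against sgScramble, 20 for ruxolitinib and 355 for BD98. The labels do not say that the numbers pair libraries. Deviations of same-numbered libraries correlated at -0.05 between treated and untreated sgArid1a cells, -0.41 between untreated sgArid1a and sgScramble cells, 0.02 between sgArid1a with anti-IFNAR and sgScramble cells, 0.30 between ruxolitinib and DMSO and 0.06 between the BD98 groups. Depth limits the low members, 15 of which were not tested.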

Other observations

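The genes that rose with ruxolitinib in sgArid1a cells were Saa3, an acute-phase protein, by 1.57, Lyz2, a lysozyme of myeloid cells, by 0.90, and Adgre1, a macrophage receptor, by 0.43 on the log2 scale, all named after their values were seen. None of the 3 passed the filter on low values in the anti-IFNAR table, where Adgre1 was listed at 0 in all 6 libraries, Saa3 had 0.95 and 0.95 with anti-IFNAR against 0.96 and 0.96 in untreated sgArid1a cells, and Lyz2 had 3.82 and 3.86 against 3.85 and 3.81. The 14 genes that rose with anti-IFNAR in BD98-treated cells included the proliferation gene Mki67 (0.29) and the mitotic kinesin Kif23 (0.32), chosen after their values were seen. In sgArid1a cells all 14 were tested, none was called and 2 lay below 0, with a median of 0.05.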
